A study of Mus musculus with 12 samples.

Results

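The transcripts described here are 9 genes that mark Purkinje cells of the cerebellum: Calb1, Pvalb, Itpr1, Car8, Pcp4, Pcp2, Rgs8, Slc1a6 and Ppp1r17. They were picked by name as a measure of cerebellar tissue in medulloblastomas and in the cerebellum beside them, and all 9 were found among the 24091 genes of the expression table. RNA was measured in 12 mouse samples that fall into 4 groups of 3. Tumors and adjacent cerebellum were taken from the same 3 mice (GB344, GB359 and GB370), whose labelled genotype is Brca2-mut;Trp53-mut. Of the controls, 3 cerebella carried the label Brca2-WT;Trp53-mut (GB517, GB519 and GB520) and 3 the label Brca2-mut;Trp53-WT (GB361, GB508 and GB512).

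In this model the Brca2 mutation removes its exons 3 and 4 conditionally, by a Cre recombinase under the human GFAP promoter that acts in the developing central nervous system. The Trp53 mutation is a knockout in the whole animal. Whether Purkinje cells themselves carried the Brca2 deletion cannot be read from these values. The study's supplement gives P90 as an age of control cerebella, which the labels of these samples do not state. The study describes its controls as matched to the tumors in age, while no age of a single tumor-bearing mouse was used here. These mice were followed to tumor formation or a humane endpoint. Cerebella with both genes intact were not analysed here, so every control carried a mutation of Brca2 or of Trp53.

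Purkinje cells are the large GABA-releasing neurons that carry the output of the cerebellar cortex to the deep nuclei. Their dendrites receive granule cell and climbing fibre input, and synaptic input releases calcium from internal stores through the IP3 receptor. High levels of calcium-binding proteins, of that receptor and of modulators of G protein signaling set these cells apart from most other neurons, and sonic hedgehog made by Purkinje cells drives the proliferation of granule cell progenitors, the cells from which this tumor class arises.

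The 9 genes lie on 7 chromosomes of the mouse genome (RefSeq, GRCm38.p6). Calb1 (chr4:15881264-15906709) and Car8 (chr4:8141493-8239041) share chromosome 4, and Itpr1 (chr6:108213083-108551116) and Ppp1r17 (chr6:56017497-56032689) share chromosome 6. Pvalb is at chr15:78191112-78206400, Pcp4 at chr16:96467606-96525793, Pcp2 at chr8:3623369-3625547, Rgs8 at chr1:153652959-153697669 and Slc1a6 at chr10:78780086-78814825. All 9 are protein-coding. Promoter sequence was at hand for 5 of the 9, with 11 annotated start sites between them. For 3 of these genes the 250 bases before the outermost start lie outside the gene, and that stretch is shown. The Pcp2 stretch was shortened to its 172 bases free of annotated exons and ends 59 bases before the start. Sequences run 5′ to 3′ on the gene's strand, and capitals mark the nuclear receptor hexamer AGGTCA or its reverse complement.
Pcp2 (chr8:3625607-3625778, minus strand): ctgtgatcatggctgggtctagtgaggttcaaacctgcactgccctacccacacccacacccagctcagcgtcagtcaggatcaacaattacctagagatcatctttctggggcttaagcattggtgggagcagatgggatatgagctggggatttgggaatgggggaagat
Pcp4 (chr16:96467356-96467605, plus strand): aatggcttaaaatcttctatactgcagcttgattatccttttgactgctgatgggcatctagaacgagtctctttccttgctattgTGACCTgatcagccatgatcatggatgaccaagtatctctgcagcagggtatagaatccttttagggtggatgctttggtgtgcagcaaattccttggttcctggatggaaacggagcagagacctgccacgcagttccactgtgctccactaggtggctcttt
Pvalb (chr15:78206401-78206650, minus strand): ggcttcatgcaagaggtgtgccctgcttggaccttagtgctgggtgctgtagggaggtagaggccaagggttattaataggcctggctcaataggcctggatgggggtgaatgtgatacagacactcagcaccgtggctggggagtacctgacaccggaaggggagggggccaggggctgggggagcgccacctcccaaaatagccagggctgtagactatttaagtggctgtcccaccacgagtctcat

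A set of 4 motifs was searched on both strands of all 11 windows and of 32851 promoters. The ROR site TAGGTCA was in none of the 11 and in 2.23% of all promoters, and the ROR site TGGGTCA was in 1 of 11, a Pcp2 window, against 3.24%. The EBF palindrome was in 0 of 11 against 0.779%. The TATA box TATAAA was in 1 of 11, the same Pcp2 window, against 12.4%. The shorter hexamer AGGTCA, which lies within TAGGTCA, was added after the windows had been read and so counts as a description only. It was in 5 of 11 windows, from 3 of the 5 genes (Pcp2, Rgs8 and Pcp4), against 14.0% of all promoters. The windows of a gene can overlap, and 2 of the Pcp2 windows hold the same site. These are matches of letters and not binding sites.

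Each value is a TPM, a transcript's share of the sample on a fixed total after scaling for transcript length, so levels of different genes can be set side by side. The samples held 15088 to 15803 genes at 1 TPM or more, and a single small RNA gene, Mir6236, took 4.24% to 11.5% of the TPM of a sample. Read depth is unknown, since TPM keeps none. Brca2 was listed at 3.24 to 4.40 TPM in all 6 controls. Trp53 was listed at 33.1 to 37.2 TPM in the controls labelled Trp53-WT, at 47.1 to 49.4 in those labelled Trp53-mut and at 124 to 130 in the tumors. A value for the whole gene does not show whether the deleted exons were present, so it checks neither label.

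All 9 markers stood among the most abundant transcripts of the control cerebella and were low in every tumor. In the controls Pcp2 ranked 10 and Slc1a6 ranked 631 of all genes by mean TPM, and in the tumors the same genes ranked 2608 and 10185. The order of the markers by TPM was stable: Pcp2, Pcp4, Pvalb, Itpr1 and Calb1 filled the top of the list in that order in all 6 controls and all 3 adjacent samples. Below them, Car8 and Rgs8 changed places in some samples, as did Ppp1r17 and Slc1a6.

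**Figure D1:**
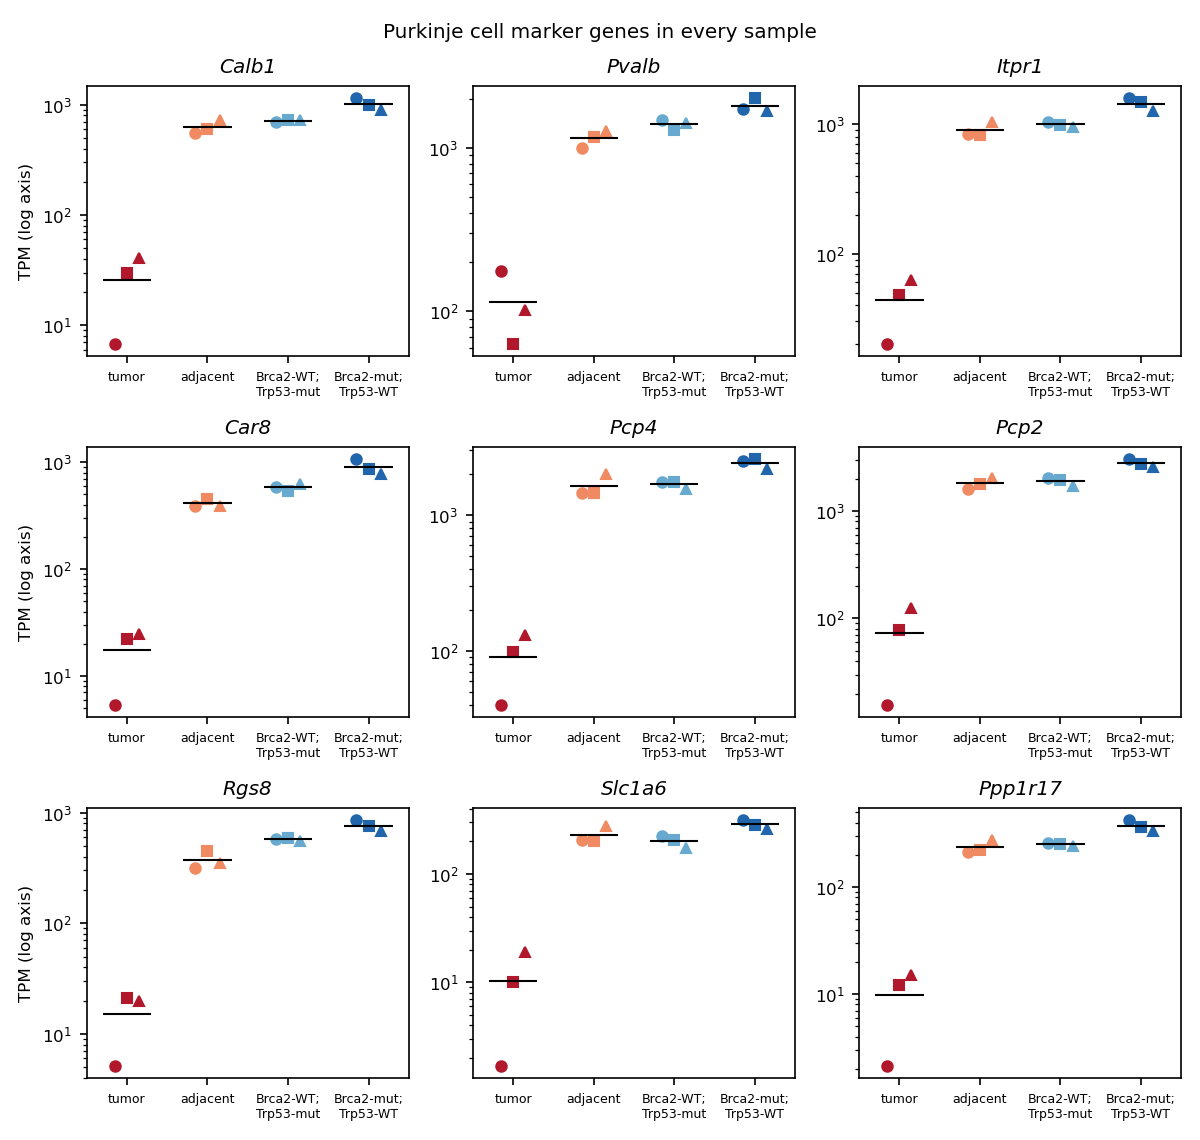
TPM of the 9 markers on log axes, 1 panel a gene, with 1 point a sample (circle, square and triangle for the mice of a group in order of their number) and a line at the mean of each group. Every tumor sits below every other sample for all 9 genes, and every Brca2-mut;Trp53-WT control sits above every Brca2-WT;Trp53-mut control.

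Calb1 encodes calbindin, the cytosolic calcium buffer by which Purkinje cells are commonly stained. It measured 6.74, 30.0 and 40.3 TPM in the tumors of GB344, GB359 and GB370. In the adjacent cerebellum of the same mice it measured 554, 597 and 722 TPM. In the controls it measured 700, 727 and 720 TPM (Brca2-WT;Trp53-mut) and 1142, 998 and 890 TPM (Brca2-mut;Trp53-WT). The tumors lay far below all other samples, while the adjacent samples overlapped with the first control genotype and lay below the second.

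Pvalb encodes parvalbumin, a faster calcium buffer that molecular layer interneurons also make. Its tumor values were 177, 63.2 and 102 TPM in GB344, GB359 and GB370. The adjacent samples measured 997, 1161 and 1269 TPM. Controls measured 1483, 1279 and 1424 TPM (Brca2-WT;Trp53-mut) and 1725, 2011 and 1690 TPM (Brca2-mut;Trp53-WT). Pvalb was the one marker that was highest in tumor GB344, and its adjacent samples were all below all 6 controls, although the nearest adjacent and control samples were close.

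Itpr1 encodes the type 1 IP3 receptor, the calcium release channel of the Purkinje endoplasmic reticulum. Tumors measured 20.0, 48.3 and 62.2 TPM, and adjacent samples 839, 829 and 1044 TPM. Controls measured 1044, 988 and 959 TPM (Brca2-WT;Trp53-mut) and 1587, 1479 and 1262 TPM (Brca2-mut;Trp53-WT). Adjacent GB370 reached the first control genotype and the other adjacent samples did not. Car8 encodes a carbonic anhydrase-related protein that binds this receptor and lowers its affinity for IP3. It measured 5.34, 22.4 and 24.7 TPM in the tumors and 393, 450 and 393 TPM in the adjacent samples. Controls measured 587, 544 and 622 TPM (Brca2-WT;Trp53-mut) and 1067, 872 and 780 TPM (Brca2-mut;Trp53-WT). For Car8 the adjacent samples were below all 6 controls with a clear gap.

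Pcp4 encodes a small modulator of calmodulin. It measured 40.2, 98.7 and 131 TPM in the tumors and 1465, 1470 and 2027 TPM in the adjacent samples. In the controls it measured 1758, 1753 and 1574 TPM (Brca2-WT;Trp53-mut) and 2492, 2585 and 2194 TPM (Brca2-mut;Trp53-WT). Adjacent GB370 exceeded the whole first control genotype. The exons of Pcp4 overlap those of Igsf5 by 191 bases on the same strand, and Igsf5 was listed at 0.331 to 1.96 TPM.

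Pcp2 and Rgs8 act on G protein signaling, the first through a GoLoco motif that binds G alpha subunits and the second as a GTPase-activating protein. Pcp2 measured 15.6, 78.7 and 124 TPM in the tumors and 1612, 1786 and 2040 TPM in the adjacent samples. Its controls measured 2025, 1942 and 1721 TPM (Brca2-WT;Trp53-mut) and 3020, 2757 and 2585 TPM (Brca2-mut;Trp53-WT). The adjacent samples overlapped with the first genotype only. Rgs8 measured 5.12, 20.9 and 19.6 TPM in the tumors and 317, 452 and 352 TPM in the adjacent samples. Its controls measured 582, 583 and 557 TPM (Brca2-WT;Trp53-mut) and 851, 758 and 675 TPM (Brca2-mut;Trp53-WT), so that here, as for Car8, the adjacent samples lay wholly below. Pcp2 shares 865 exon bases with Pet100 on the opposite strand. Whether counting used strand is not given in the sources used here, and Pet100 was listed at 17.4 to 29.0 TPM.

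Slc1a6 encodes EAAT4, the glutamate transporter of Purkinje dendrites and spines. It measured 1.67, 10.1 and 18.8 TPM in the tumors and 207, 200 and 277 TPM in the adjacent samples. Its controls measured 223, 206 and 176 TPM (Brca2-WT;Trp53-mut) and 314, 287 and 263 TPM (Brca2-mut;Trp53-WT). It was the one marker whose adjacent samples overlapped with both control genotypes. Ppp1r17 encodes G-substrate, a phosphatase inhibitor that is a target of cGMP-dependent kinase. It ranged from 2.12 to 14.96 TPM in the tumors, from 213 to 272 in the adjacent samples, from 240 to 260 in Brca2-WT;Trp53-mut controls and from 334 to 420 in Brca2-mut;Trp53-WT controls.

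The first comparison asked how much of the Purkinje signal was left in the tumors. Against the 6 controls, all 9 markers fell in the tumors, by 3.91 (Pvalb) to 5.56 (Rgs8) on the log2(TPM + 1) scale. The median of the 9 log2 fold changes was -5.15, beside -0.11 over all 16241 genes tested. The call, an adjusted p below 0.01 together with a log2 fold change no smaller than 1 in size, from limma with Benjamini-Hochberg adjustment over all genes, was made for 9 of 9 markers, while 21.5% of all genes were called lower. Rgs8 (log2 fold change -5.56, SE 0.35, adjusted p = 2.44e-07) had rank 5 and Car8 (-5.54, SE 0.41, adjusted p = 6.63e-07) rank 6 from the lowest of all genes tested. Pcp2 had rank 10, Calb1 rank 12 and Ppp1r17 rank 17, while Pvalb (-3.91, SE 0.27, adjusted p = 3.93e-07) had rank 196. Every tumor was below every control for 9 of 9 markers, which held for 35.7% of all genes. In bulk tissue, fewer Purkinje cells and less RNA per Purkinje cell cannot be told apart.

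Against the adjacent cerebellum of the same mice, 9 of 9 markers were again called lower, beside 18.0% of 15845 genes, by 3.43 (Pvalb) to 5.04 (Pcp2) on the log2(TPM + 1) scale. Adjusted p-values from limma ran from 0.000299 (Itpr1) to 0.00169 (Slc1a6). This fit did not use the pairing by mouse, and a fit with mouse as a block is given with the other settings below. Every tumor was below every adjacent sample for 9 of 9 markers and for 38.9% of all genes. Both tumor comparisons share the 3 tumors, so they are not independent of each other. Leaving out tumor GB344, the lowest, the median log2 fold change was -4.42 against controls and -4.03 against adjacent cerebellum, with all 9 still called.

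**Figure D2:**
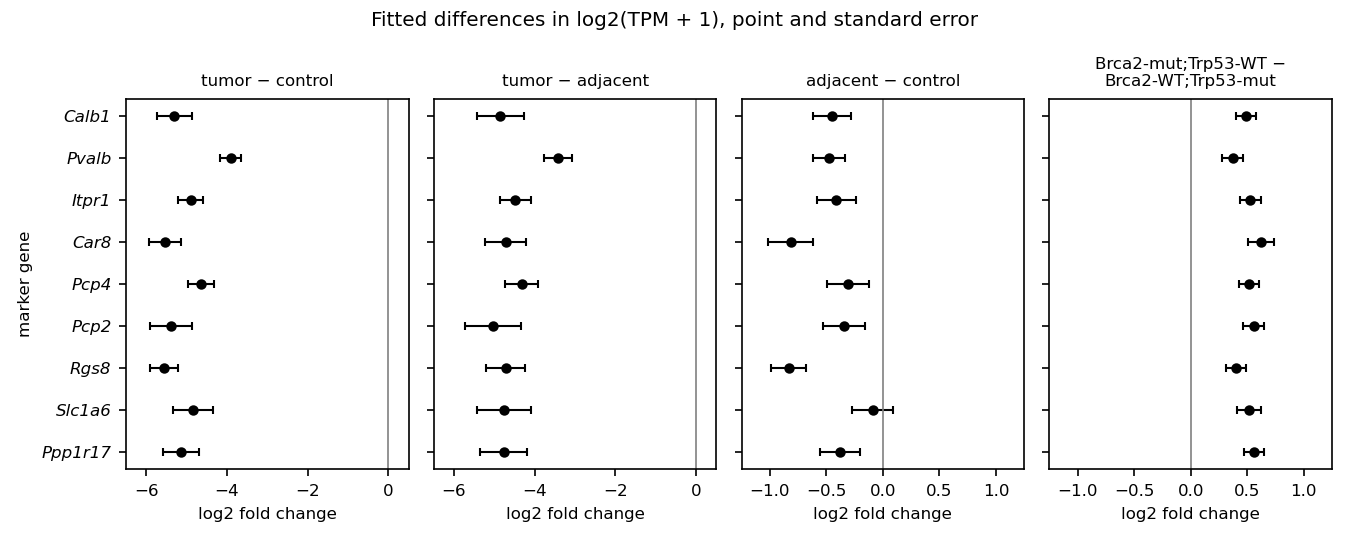
Log2 fold changes of the 9 markers fitted by limma on log2(TPM + 1) in 4 comparisons, with bars of 1 standard error; the axes of the right-hand panels span a narrower range. The tumor panels lie between -5.56 and -3.43, the adjacent panel between -0.83 and -0.09 and the genotype panel between 0.37 and 0.62.

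The tumors differed in how much marker signal they kept. Taken as a percent of the control mean and summarized by the median over the 9 markers, the level was 0.767% in GB344, 3.86% in GB359 and 5.10% in GB370 (mean 3.24% ± 2.23, SD, n = 3). In GB344, 6 of the markers sat within a narrow band from 0.668% (Pcp2) to 0.781% (Calb1). The other 3 stood above that band, Itpr1 at 1.64%, Pcp4 at 1.95% and Pvalb at 11.1% of the control mean. The ratio of Pvalb to Calb1 was 26.3 in this tumor and 1.51 to 2.53 in the other 11 samples. These 3 genes were singled out after their values were seen, and what else in the tumor may express them was not tested.

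**Figure D3:**
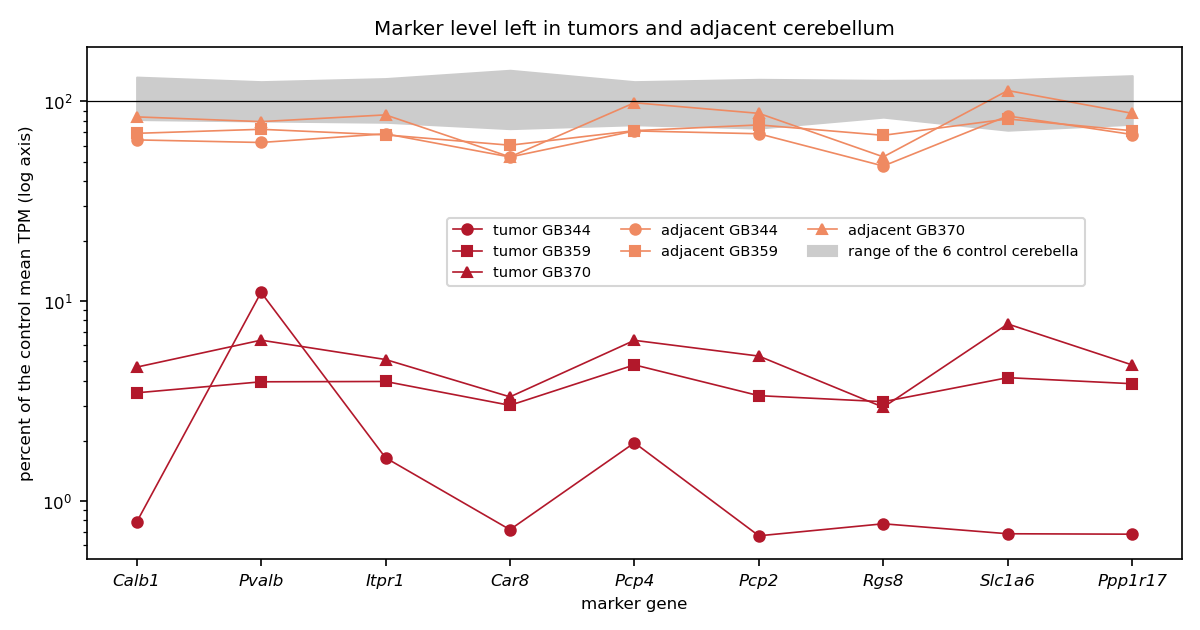
Each marker in the 3 tumors and 3 adjacent samples as a percent of its mean over the 6 controls, on a log axis, with the range of the controls in grey. Tumor GB344 lies at 0.668% to 0.781% for 6 markers and at 11.1% for Pvalb, and adjacent samples leave the control range for Car8, Rgs8 and Pvalb in all 3 mice.

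The cerebellum beside the tumors kept most of its marker signal. The median over the markers was 68.2%, 71.3% and 85.6% of the control mean in GB344, GB359 and GB370 (mean 75.0% ± 9.27, SD, n = 3). None of the 9 markers was called against the 6 controls, beside 0.0124% of all genes called lower. All 9 log2 fold changes were negative, as were those of 6514 of 16091 genes, with a median of -0.41 beside 0.07 over all genes. An unadjusted p below 0.05 by limma was found for 5 of 9 markers, beside 5551 of 16091 genes in either direction. At an adjusted p below 0.05 with no minimum fold, 3 of 9 markers passed, beside 5.57% of all genes: Rgs8 (log2 fold change -0.83, SE 0.16, adjusted p = 0.0149), Car8 (-0.82, SE 0.20, adjusted p = 0.0269) and Pvalb (-0.48, SE 0.14, adjusted p = 0.0492). The same 3 markers were those with every adjacent sample below every control, which held for 7.64% of genes. Slc1a6 had the smallest difference (-0.09, SE 0.18, adjusted p = 0.762).

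These differences depended on which controls were used. Against the Brca2-WT;Trp53-mut controls alone the median log2 fold change over the markers was -0.15 and no marker passed an adjusted p of 0.05 (Car8 0.0631, Rgs8 0.0699). Against the Brca2-mut;Trp53-WT controls alone the median was -0.66 and 3 markers passed, Car8 (-1.13, adjusted p = 0.0429), Rgs8 (-1.03, adjusted p = 0.0429) and Ppp1r17 (-0.66, adjusted p = 0.0484). The share of all genes passing 0.05 with these controls alone was not computed, so the count has no background beside it. Neither control genotype is that of the tumor-bearing mice, so genotype and nearness to a tumor cannot be told apart. No marker passed 0.05 without adjacent GB344, or with all 4 groups in 1 fit. Adjacent GB344 and GB359 also carried transcripts of granule cell progenitors, with Atoh1, the transcription factor of that lineage, at 59.4 and 50.5 TPM, against 4.997 in adjacent GB370 and at most 0.212 in the controls. Their part in the lower marker values was not tested. Rgs8 and Car8 stood at 52.8% and 52.7% of the control mean in adjacent GB370.

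Markers were also compared with each other within a sample. Rgs8 to Slc1a6 was 1.53, 2.26 and 1.27 in the adjacent samples of GB344, GB359 and GB370 and 2.57 to 3.17 in all 6 controls. Car8 to Itpr1 was 0.468, 0.542 and 0.376 in the adjacent samples and 0.551 to 0.672 in the controls. Neither ratio overlapped between adjacent and control samples, nor did Rgs8 to Pcp2 or Car8 to Pcp2. The other ratios computed did overlap: Pcp2 to Pcp4, Calb1 to Pcp2, Itpr1 to Calb1, Pvalb to Calb1 and Ppp1r17 to Pcp2. The share of non-overlapping ratios over all pairs of genes was not computed. Ppp1r17 to Pcp2 kept to 0.120 to 0.153 in all 12 samples, tumors included. The ratios were chosen after the values were seen and were given no test.

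**Figure D4:**
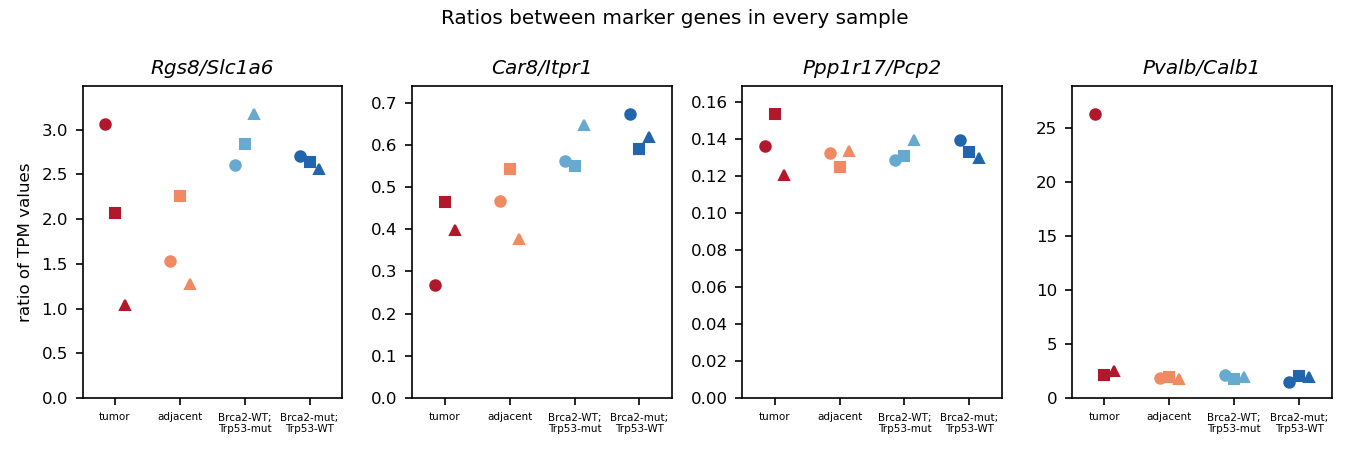
Ratios of TPM between pairs of markers in every sample, on linear axes that start at 0, with symbols as in the plot of TPM by group. Adjacent samples lie below all controls for Rgs8 to Slc1a6 (1.27 to 2.26 against 2.57 to 3.17) and Car8 to Itpr1, while Pvalb to Calb1 stands at 26.3 in tumor GB344.

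Between the control genotypes, all 9 markers were higher in Brca2-mut;Trp53-WT than in Brca2-WT;Trp53-mut cerebella, by ratios of mean TPM from 1.30 (Pvalb) to 1.55 (Car8). Every Brca2-mut;Trp53-WT sample exceeded every Brca2-WT;Trp53-mut sample for 9 of 9 markers, which held for 6.70% of 15575 genes. No marker was called, beside 0.0128% of all genes called higher, and none passed an adjusted p of 0.05 in limma, beside 0.0385% of genes. The log2 fold changes ran from 0.37 (Pvalb, SE 0.09, adjusted p = 0.106) to 0.62 (Car8, SE 0.12, adjusted p = 0.0710). An unadjusted p below 0.05 by limma was found for 9 of 9 markers, beside 3123 of 15575 genes in either direction. The smallest adjusted p was that of Ppp1r17 (0.56, SE 0.09, adjusted p = 0.0548). With a minimum of 5 TPM, 4 markers passed 0.05, and with all 4 groups in 1 fit none did, with adjusted p of 0.663 to 0.861. The share of all genes passing 0.05 in these fits was not computed. Brca2 and Trp53 status change together here, so their parts cannot be told apart.

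Other transcripts also differed along this split of the controls. Choroid plexus genes were high in Brca2-WT;Trp53-mut cerebella, with transthyretin (Ttr) at 3957, 5039 and 3849 TPM, and measured 842, 9.60 and 11.8 TPM in GB361, GB508 and GB512. All 6 choroid plexus genes had every Brca2-mut;Trp53-WT sample below every Brca2-WT;Trp53-mut sample, which held for 20.3% of all genes. Granule neuron genes had log2 fold changes opposite in sign to those of the markers, with 9 of 9 negative and a median of -0.27, and none passed an adjusted p of 0.05. A negative sign was the common direction here, found for 10256 of 15575 genes with a median of -0.07. The part of these transcripts in the marker difference was not tested.

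Other Purkinje transcripts were set beside the 9 markers, from a list of 16 genes. Of these, 13 were called lower in the tumors against the controls, where 21.5% of all genes were. Among them were Skor2, a transcriptional corepressor of Purkinje development (log2 fold change -3.56), Rora, the nuclear receptor lost in staggerer mice (-3.43), and Gng13, a G protein gamma subunit (-5.39). Shh, which encodes sonic hedgehog, measured 0.672, 0.820 and 0.766 TPM in the tumors and 5.94 to 13.0 TPM in the controls (-2.34, limma adjusted p = 2.64e-06). The transcription factor Lhx5 was among the genes called lower (-3.37), and the 3 genes that were not called lower, Lhx1, Ebf2 and Foxp2, also encode transcription factors. Lhx1 measured 96.0, 131 and 86.3 TPM in the tumors and 50.5 to 70.9 TPM in the controls (0.76, adjusted p = 0.00104, under the fold minimum). Ebf2 and Foxp2 had log2 fold changes of 0.84 and 0.44 and were not called. Against the same controls, the adjacent samples had no call among the 16 genes, beside 2 genes called lower and 36 called higher of 16091. At an adjusted p below 0.05 by limma with no minimum fold, 2 of the 16 were lower, beside 5.57% of all genes.

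The IP3 calcium pathway, in which Itpr1 and Car8 act, was low in the tumors as well, with 11 of 12 genes called lower against controls, beside 21.5% of all genes. The IP3 kinase gene Itpka had a log2 fold change of -4.89, the calcium pump gene Atp2a3 -4.77 and the IP3 phosphatase gene Inpp5a -3.83. Gnaq, the widely expressed G protein of the pathway, was the exception at -0.90, under the fold minimum. In the adjacent cerebellum 11 of 12 had negative log2 fold changes and none was called. At an adjusted p of 0.05 by limma 6 were lower, beside 5.57% of all genes. Among them were Itpka (-0.73, limma adjusted p = 0.0232) and Plcb4, a phospholipase of the pathway (-0.41, limma adjusted p = 0.0164). Plcb3, another phospholipase of the list, measured 63.4 to 73.4 TPM in the adjacent samples and 47.0 to 78.8 TPM in the controls.

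Transcripts of several other cerebellar cell types were low in the tumors too. Beside the 9 of 9 markers, 9 of 9 granule neuron genes, 7 of 7 molecular layer interneuron genes, 7 of 7 oligodendrocyte genes and 8 of 9 Bergmann glia and astrocyte genes were called lower against controls, where 21.5% of all genes were, with median log2 fold changes of -3.97, -2.80, -4.63 and -2.88. Other lists were mixed. Of 7 microglia and endothelium genes 1 was called lower, and of 6 choroid plexus genes 1 was. Of 5 genes of Golgi cells and cerebellar nuclei, 3 were called lower and 1 higher. All 8 genes of granule progenitors and proliferation were called higher, with a median of 5.29, beside 14.4% of all genes called higher. These lists are given by count, and no test set one against another.

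**Figure D5:**
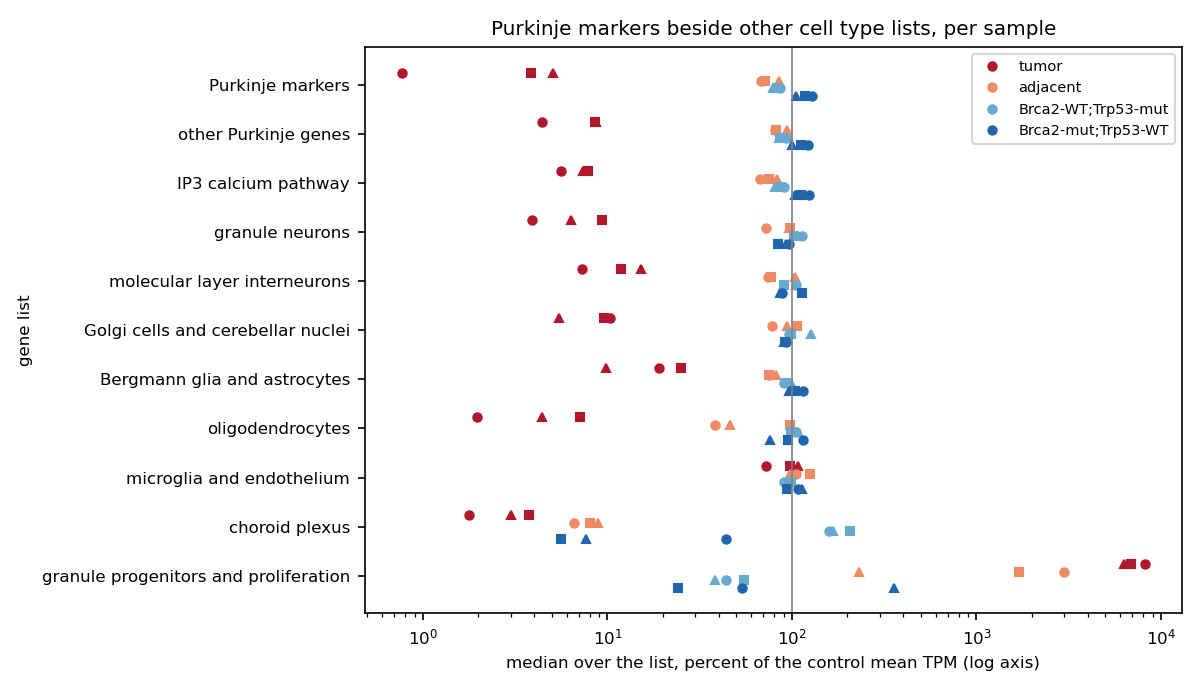
Median over each gene list as a percent of the control mean, 1 point a sample, on a log axis, with colors for the 4 groups and symbols for the mice as in the plot of TPM by group. In the tumors the Purkinje markers sit at 0.767%, 3.86% and 5.10%, and granule progenitor genes lie far above 100 percent in tumors and in adjacent GB344 and GB359.

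The genes whose pattern was most like the markers were found by Pearson correlation over the 12 samples between log2(TPM + 1) and the mean of the z-scored markers, among 12728 genes with a mean of at least 5 TPM. Among the 10 closest were Atp2a3 (r = 0.9994), Akain1, Plekhd1, Shisa6, Clec2l, 1500009C09Rik, Ppp1r16b and 6030419C18Rik (r = 0.9987). The split between 3 tumors and 9 other samples sets most of these values, and over the 9 samples without tumors the genes named had r from 0.929 to 0.976. Among the markers themselves, which enter the mean, Pvalb had the lowest r over all samples (0.943) and Slc1a6 (0.817) and Rgs8 (0.859) the lowest without tumors. These correlations describe the samples and carry no test.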

How the data were processed

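Poly(A) RNA from flash-frozen mouse tumors and cerebella was sequenced by the authors. The authors made the deposited TPM values with Salmon (version 0.8.1) against mm10 knownGene transcripts and summed them by gene with tximport. The table holds 24091 genes in 12 samples, with sums of 999793 to 999876 per sample, and 0 columns of samples were left unused. Depth is unknown, so precision rests on the spread of 3 samples a group. Samples were grouped by their labels. By mouse number the samples are separate mice, apart from the tumor and adjacent pairs.

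Log2(TPM + 1) was fitted with limma 3.58.1 (R 4.3.3, eBayes with trend) over genes that reached 1 TPM in 3 or more of the samples compared, with Benjamini-Hochberg adjustment over all genes tested. A call needed an adjusted p below 0.01 and a log2 fold change no smaller than 1 in size. Fold changes on this scale understate those of low genes. The study's own count-based test could not be run, since TPM are not counts. The script was tested on simulated data. Other settings changed the pseudocount, filter, scaling, trend, samples in the fit, threshold, controls and mouse block, and leaving out each sample. Tumor and adjacent samples of a mouse deviated from their group means together, but weakly (r = 0.249, 0.176 and 0.152 for the 3 mice). Mice were matched by the numbers in the titles. For tumor and adjacent samples of different mice r ran from -0.163 to 0.0180.

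The 9 markers and the other gene lists were chosen with earlier results of these data known. Named genes are the 9 markers, genes of the other Purkinje and IP3 calcium pathway lists, the most abundant 3 of each cell type list and the 10 genes most like the markers, while Atoh1 and the genes Gfap, Mki67 and Top2a were named after their values were seen. Promoters and positions are from RefSeq (GRCm38.p6) and exon overlaps from GENCODE. RefSeq matched 9 of 9 markers. Promoters were at hand for 5. Some genes that this rule names are not reported here.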

Additional observations from a re-analysis of the deposited data

How the results depend on the processing

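The tumor results kept their direction and their calls, 9 of 9 markers lower, under every alternative run, with the mouse block included (adjusted p 0.000712 to 0.00211 by limma with the replicate block, 3542 genes called against 3607). At an adjusted p below 0.05 with no fold minimum, genes called rose to 11573 (tumor against control, main 5830), 7980 (tumor against adjacent), 2524 (adjacent against control, main 38) and 71 (between control genotypes, main 9), and 3 markers were lower in adjacent cerebellum. Leaving out 1 sample gave 5641 to 5913 genes called for tumor against control, 2377 (without adjacent GB359) to 3482 for tumor against adjacent, 0 (without control GB520) to 586 (without adjacent GB370) for adjacent against control and 4 to 29 (without GB361) between control genotypes. Genes called for adjacent against control were 4 with no filter, 58 with median-of-ratios scaling, 59 with quantile normalization, 10 without trend, 24 with all 4 groups in 1 fit and 4 with only Brca2-mut;Trp53-WT controls. Between control genotypes the same settings gave 3 with no filter, 4 with median-of-ratios scaling, 3 with quantile normalization, 3 without trend, 21 with all 4 groups, and 3 with a minimum of 5 TPM. Settings chosen after seeing the data gave 58 and 4 without Mir6236, and for adjacent against control 0 with only controls GB508 and GB512 and 15 with only adjacent GB370, a lone sample assumed to vary like the controls. The adjacent level was 90.8% of control with only Brca2-WT;Trp53-mut controls and 63.0% with only Brca2-mut;Trp53-WT controls, against 75.0%. The adjacent log2 fold change turned positive for Slc1a6 with only Brca2-WT;Trp53-mut controls (0.17, adjusted p = 0.515), and with only adjacent GB370 for Slc1a6 (0.21) and Pcp4 (0.0032). The cause was not tested. With 3 samples a group and unknown read depth, small differences are poorly resolved.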

Other observations

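Oligodendrocyte genes of the adjacent cerebellum stood at different levels in the 3 mice. The median over 7 genes was 38.3% of the control mean in GB344, 97.3% in GB359 and 46.1% in GB370, and myelin basic protein (Mbp) measured 908, 2791 and 1109 TPM there against 1938 to 2982 TPM in the controls. The Purkinje markers in the same samples stood at 68.2%, 71.3% and 85.6%. Gfap, the intermediate filament gene of astrocytes, measured 314, 285 and 213 TPM in the adjacent samples of GB344, GB359 and GB370. It measured 117 to 181 TPM in the controls, so that every adjacent sample was above every control, which held for 11.7% of all genes. Gfap was the exception in its list of 9 Bergmann glia and astrocyte genes. The other 8 had negative log2 fold changes against the controls. Of these, 4 were lower at an adjusted p below 0.05 by limma, beside 5.57% of all genes.

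Control GB512, labelled Brca2-mut;Trp53-WT, had higher values of proliferation transcripts than the other controls. Mki67 measured 5.63 TPM there and 0.180 to 0.343 TPM in the other 5 controls, and Top2a measured 8.42 TPM against 0.277 to 0.686 TPM. Atoh1 was at 0.0689 TPM in that sample, within the range of the other controls.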
